A study of Mus musculus with 10 samples.

Results

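Tnfsf8 encodes CD30 ligand (CD153) and Tnfrsf8 encodes its receptor, CD30. They are 2 of the 32285 genes counted in 5 droplet single-cell RNA libraries of mouse lymph nodes. The pair was chosen because Tnfsf8 was higher in node fibroblasts of mice with either of 2 mammary tumours than of untreated (naive) mice in these data, so the values of that contrast describe the choice and carry no test. Both genes were counted in all 5 libraries, and each was followed by fibroblast subset, by lymphocyte gate and by condition.

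CD30 ligand is a membrane protein of the tumour necrosis factor (TNF) superfamily, known from activated T cells, and CD30 is a TNF receptor superfamily member known from activated and regulatory lymphocytes and from lymphoma cells. CD30 binds TNF receptor associated factors (TRAFs) through its cytoplasmic tail and signals to NF-kB. In lymph nodes, fibroblastic reticular cells build the T-cell zone and make the chemokines CCL19 and CCL21.

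All mice were 8-week-old wild-type BALB/C females. The tumour groups carried 4T1 cells, a metastatic mouse mammary carcinoma line, or 67NR cells, a non-metastatic line of the same origin, in a mammary fat pad for 18 days, to 500 mm3. A further group received bacterial lipopolysaccharide (LPS) under the skin 72 hours before collection, and the naive group received nothing. At least 3 mice were used per condition, and 1 hashtag named each condition, so mice within a condition could not be told apart and a condition of a library counted as 1 pool. The stromal library (endothelial cells and fibroblasts) held 4T1, 67NR, LPS and naive axillary nodes. A second library of myeloid and stromal cells, and one of T cells, each held 4T1, 67NR and naive axillary nodes. The remaining 2 libraries, called atlases here, held T, B and myeloid cells of naive axillary and naive mediastinal nodes, with surface antibodies. The series is about fibroblasts of tumour-draining nodes, and the question here was in which cells ligand and receptor were found and how their levels compared between the tumours, LPS and naive nodes.

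Cells used numbered 2350 in the stromal, 5412 in the myeloid and stromal, 7210 in the T cell, 10635 in the axillary and 25148 in the mediastinal library. Median UMIs per cell (unique molecular identifiers, the counted transcripts) were 12899, 10802.5, 10930, 6435 and 2272. In the T cell library 6860 of 7210 cells passed the T cell gate (at least 2 UMIs of Cd3 genes and none of 3 B cell genes). Between 3 and 76 cell barcodes were shared by any pair of libraries. The mediastinal library stood apart. There, 83.8% of cells lay above both the CD4 and the CD8 antibody threshold, against 0.668% in the axillary atlas. Levels are given in CPM, the UMIs of a gene per 1000000 UMIs of the summed cells. Tnfsf8 reached 45.5 CPM in the mediastinal B cell gate, where 8.84% of 713 cells held a UMI, and 1.18 CPM in the axillary one, where 0.679% of 1914 cells did. Comparisons over pools that include the mediastinal one are therefore given with and without it.

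Both genes lie on the minus strand of chromosome 4. In GENCODE on GRCm38, Tnfsf8 (ENSMUSG00000028362) spans chr4:63831308-63861347 in 4 exons and Tnfrsf8 (ENSMUSG00000028602) spans chr4:145267137-145315164 in 13 exons. The bases just upstream of the annotated starts, from RefSeq promoter sequences on GRCm38.p6, are shown because the pair differed between T cell gates in level. The Tnfsf8 window is chr4:63861348-63861534 (187 bases) and the Tnfrsf8 window is chr4:145315165-145315414 (250 bases), each 5′ to 3′ on the minus strand. Capitals mark, in order, a GC box, an NF-kB consensus, an AP-1 motif and an E-box, all in the Tnfrsf8 window.
Tnfsf8 upstream: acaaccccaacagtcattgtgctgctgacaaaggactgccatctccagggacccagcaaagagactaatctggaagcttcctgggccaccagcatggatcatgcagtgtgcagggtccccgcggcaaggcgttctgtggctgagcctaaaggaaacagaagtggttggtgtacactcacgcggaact
Tnfrsf8 upstream: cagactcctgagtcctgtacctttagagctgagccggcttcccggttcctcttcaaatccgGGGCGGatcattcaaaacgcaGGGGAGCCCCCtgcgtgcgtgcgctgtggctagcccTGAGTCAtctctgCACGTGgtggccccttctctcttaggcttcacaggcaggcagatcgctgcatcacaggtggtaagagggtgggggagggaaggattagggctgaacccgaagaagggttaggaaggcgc

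Motifs were searched on both strands: AP-1 (TGANTCA), GC box (GGGCGG), E-box (CACGTG), STAT (TTCNNNGAA) and the NF-kB consensus. The Tnfrsf8 window held 1 GC box (189 bases before its end), 2 overlapping NF-kB matches (168 and 167 bases), 1 AP-1 motif (132 bases) and 1 E-box (119 bases), and no STAT match. Among 32851 promoters cut to the same 250 bases, 32.7% held the GC box, 7.25% the NF-kB consensus, 6.75% AP-1, 6.02% the E-box and 7.02% STAT. None of these letters occurred in the Tnfsf8 window, and 22.2%, 5.29%, 5.14%, 3.94% and 5.46% of promoters cut to 187 bases held them, in the same order. A match is a description of letters and was not tied to binding.

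Tnfsf8 in fibroblasts was low in naive nodes and higher in both tumour groups, in both libraries. In LPS nodes, held by the stromal library only, it was low too. Most fibroblast Tnfsf8 lay in the subsets that express Ccl19 and Ccl21a. Fibroblast-like cells numbered 1311 in the stromal library and 704 in the myeloid and stromal library. Their marker genes included Pdgfra, Pdgfrb, collagen genes and Dcn. Intervals of a CPM level are exact Poisson 95% intervals and cover counting error only, and fewer expressing cells and less RNA per cell cannot be told apart in such sums. In the stromal library the naive level was 6.60 CPM (3.77 to 10.7; 16 UMIs in 4 of 192 cells), and the LPS level was 8.83 (6.74 to 11.4; 60 UMIs in 12 of 394 cells). The 4T1 level there was 24.6 (19.0 to 31.3; 65 UMIs in 17 of 154 cells), and the 67NR level was 39.4 (35.5 to 43.6; 368 UMIs in 80 of 571 cells). In the myeloid and stromal library Tnfsf8 stood at 11.8 (8.43 to 16.1; 19 of 217 cells) in naive, 49.1 (42.1 to 56.9; 31 of 203 cells) in 4T1 and 48.8 (42.9 to 55.2; 52 of 284 cells) in 67NR fibroblasts. All 4 tumour sums lay above both naive sums.

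As log2 ratios to the naive sum of the same library, 4T1 gave 1.90 (1.09 to 2.79) and 2.06 (1.55 to 2.59), and 67NR gave 2.58 (1.86 to 3.40) and 2.05 (1.56 to 2.57). Fitted over both libraries (edgeR, library as block), the log2 fold changes were 2.02 (SE 0.25) for 4T1 and 2.31 (SE 0.24) for 67NR, with the naive sums shared. In that fit 97 of 12764 genes passed as higher in 4T1 (0.760%) and 81 as lower (0.635%), 1.39% in all, at an adjusted p under 0.05. In 67NR 220 passed as higher (1.72%) and 127 as lower (0.995%), 2.72% in all. Since this contrast chose the pair, nothing is read from Tnfsf8 being among them. Without the fibroblast with the most Tnfsf8 in each sum, the log2 values were 2.15 and 2.87.

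**Figure D1:**
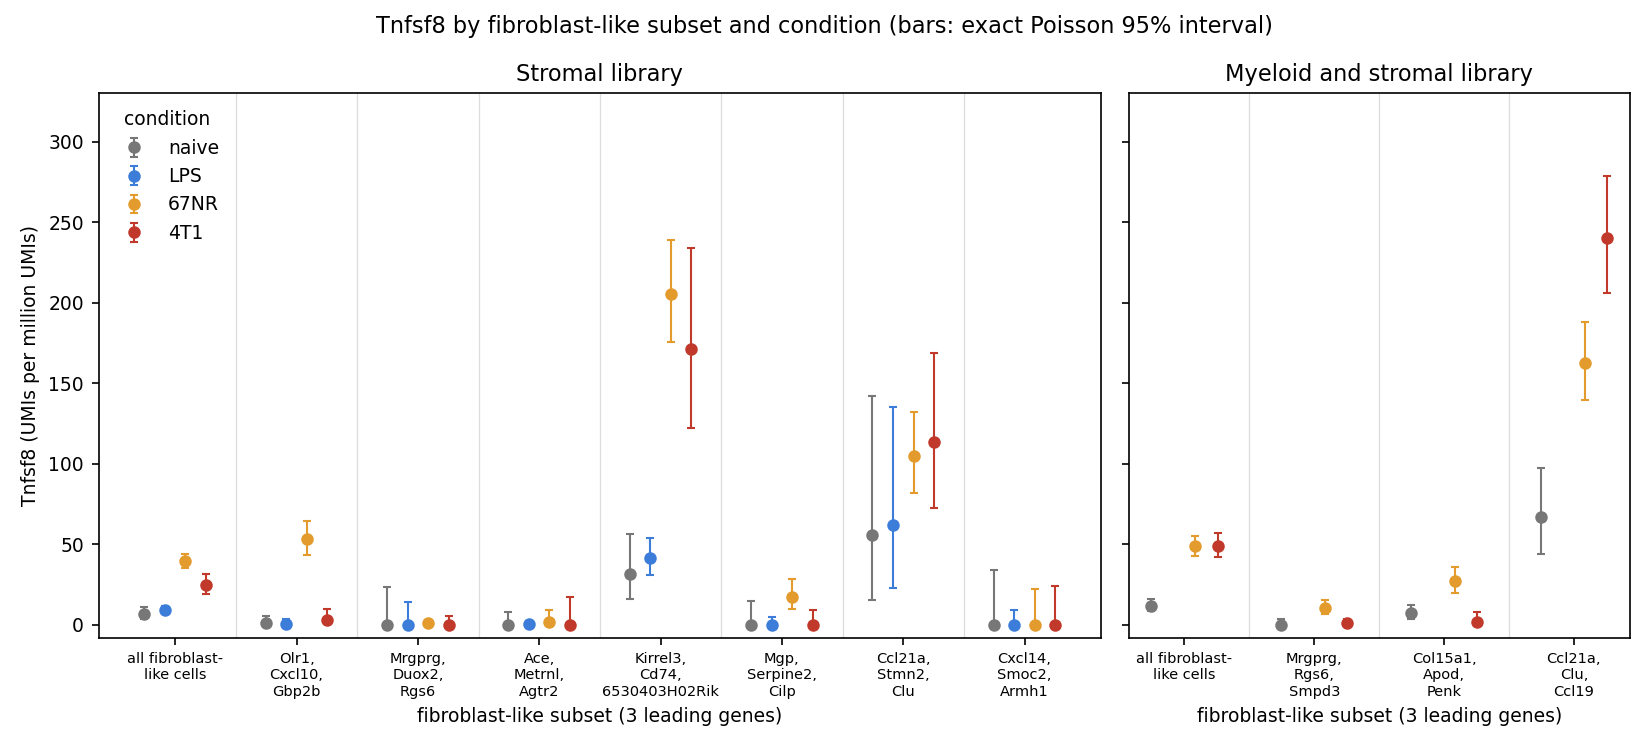
Tnfsf8 level (CPM, linear axis) in all fibroblast-like cells and in each subset, by condition, in the stromal library (left) and the myeloid and stromal library (right). Points are 1 sum of cells and bars are exact Poisson 95% intervals; the subsets led by Kirrel3, Cd74 and 6530403H02Rik, by Ccl21a, Stmn2 and Clu, and by Ccl21a, Clu and Ccl19 hold the highest levels of their library in every condition, up to 240 in 4T1.

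Within the stromal library the subset led by Kirrel3, Cd74 and 6530403H02Rik (189 cells), which also expressed Ccl19, Ccl21a and Lepr, held Tnfsf8 at 31.6 in naive (2 of 36 cells), 41.3 in LPS (7 of 78), 171 in 4T1 (6 of 17) and 206 in 67NR (23 of 58). Single cells weighed on these sums, with 31 of the 39 Tnfsf8 UMIs in 1 cell in 4T1 and 10 of 11 in 1 cell in naive. Without the highest cell of each sum the levels were 2.98 in naive, 24.2 in LPS, 38.5 in 4T1 and 143 in 67NR. The subset led by Ccl21a, Stmn2 and Clu (79 cells) held 55.5 in naive (1 of 7 cells), 62.0 in LPS (3 of 6), 113 in 4T1 (10 of 15) and 105 in 67NR (31 of 51), with intervals that overlap. In the myeloid and stromal library the subset led by Ccl21a, Clu and Ccl19 (198 cells) held 66.9 in naive (17 of 49 cells), 240 in 4T1 (28 of 62) and 162 in 67NR (42 of 87). The share of cells with a Tnfsf8 UMI in this subset was 34.7%, 45.2% and 48.3%, so the levels differed more than the shares. Without the highest cell of each sum its levels were 56.1, 177 and 145.

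Other subsets held little Tnfsf8 outside 67NR. The subset led by Olr1, Cxcl10 and Gbp2b held 1.00 in naive, 0.662 in LPS and 2.63 in 4T1, against 53.2 in 67NR (15 of 117 cells), where 74 of its 107 Tnfsf8 UMIs lay in 1 cell. Without that cell its 67NR level was 16.5. The subset led by Mgp, Serpine2 and Cilp held 17.3 in 67NR (9 of 75 cells) and no Tnfsf8 UMI in 24 naive, 48 LPS or 29 4T1 cells, with interval bounds up to 14.9, 4.59 and 9.08. In the myeloid and stromal library, the subset led by Col15a1, Apod and Penk stood at 6.99 in naive, 1.39 in 4T1 and 27.0 in 67NR, and the subset led by Mrgprg, Rgs6 and Smpd3 at 0, 0.924 and 10.5. The stromal subsets led by Ace, Metrnl and Agtr2 and by Mrgprg, Duox2 and Rgs6 held at most 1.67 in any condition, and none of the 52 cells led by Cxcl14, Smoc2 and Armh1 held Tnfsf8.

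The mix of subsets differed between conditions. The subsets were built from the same counts, so levels at fixed shares are a description. With subset shares of UMIs held at those of naive fibroblasts, the Tnfsf8 level in the stromal library would be 29.1 in 4T1 and 56.8 in 67NR, log2 2.14 and 3.11 over naive. In the myeloid and stromal library it would be 29.7 and 37.7, log2 1.33 and 1.67 in place of 2.06 and 2.05.

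Few fibroblasts carried most of the Tnfsf8. Of 113 stromal fibroblasts with a Tnfsf8 UMI, 47 held 1 UMI, and the 12 cells with at least 10 held 281 of the 509 UMIs (55.2%). In the myeloid and stromal library 50 of 102 held 1 UMI, and the 15 cells with at least 10 held 274 of 465 UMIs (58.9%). The highest stromal cells held 74 and 53 (both 67NR) and 31 (4T1) UMIs, and without its highest cell the stromal 4T1 level was 13.0. The highest cells of the myeloid and stromal library held 48 and 37 UMIs, both 4T1.

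**Figure D2:**
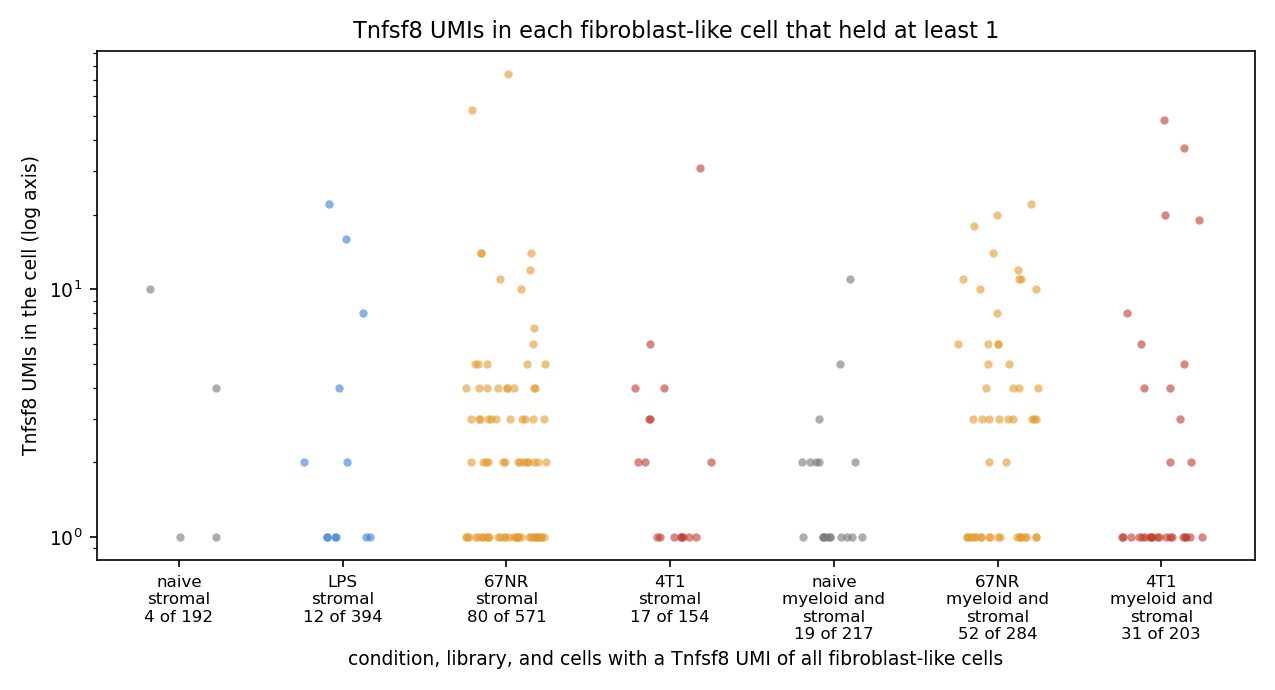
Tnfsf8 UMIs in each fibroblast-like cell that held at least 1 (log axis), by condition and library, with the number of such cells of all fibroblast-like cells under each group. Each point is 1 cell and horizontal scatter carries no value; cells with at least 10 UMIs occur in every group, and the highest, at 74, lies in the stromal 67NR group.

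T cell transcripts in the same droplets were counted beside these values. Among the 10 fibroblasts with the most Tnfsf8 in each library, UMIs of Cd3d, Cd3e, Cd3g and Trac together ran from 0 to 2, Cd4 from 0 to 1 and Ptprc from 0 to 5. The cell with 74 Tnfsf8 UMIs held 10 UMIs of collagen genes and Dcn, the fewest of these 20 cells. Over all fibroblasts, 24.8% of stromal cells with a Tnfsf8 UMI and 21.9% of those without held a UMI of the 4 T cell genes, and in the myeloid and stromal library 24.5% and 42.5% did. Ptprc, the CD45 gene of leukocytes, was in 2.65% and 0.334% of stromal fibroblasts with and without Tnfsf8, and in 9.80% and 22.4% of those of the myeloid and stromal library.

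For comparison, blood endothelial cells of the stromal library held a Tnfsf8 UMI in 8 of 728 cells (1.10%), at a median of 7221 UMIs per cell against 15929 in fibroblasts. Their shares by condition were 0.578% in naive, 1.52% in 4T1 and 1.91% in 67NR, with no Tnfsf8 UMI in 148 LPS cells. Monocytes and neutrophils of the myeloid and stromal library held Tnfsf8 in 0.353% and 0.324% of cells. The naive stromal fibroblast share was 2.08% (Clopper-Pearson 95% interval 0.570 to 5.25). The 67NR share was 14% (11.3 to 17.1) and the 4T1 share 11% (6.56 to 17.1). The intervals cover counting error over the cells of 1 pool. Tumour and naive fibroblast values chose the pair and endothelial cells were not thinned, so nothing is read from how these shares compare. After thinning every fibroblast to 5000 UMIs, which left out 8 of 154 4T1, 27 of 571 67NR, 19 of 394 LPS and 12 of 192 naive stromal cells, the Tnfsf8 shares were 8.90%, 9.56%, 2.13% and 1.67%. In the myeloid and stromal library the thinned shares were 7.51% in 4T1, 13.1% in 67NR and 5.15% in naive.

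Whether the tumours differed from each other was not used in choosing the pair. Tnfsf8 in 4T1 over 67NR fibroblasts had a log2 fold change of -0.29 (SE 0.19) and an adjusted p of 0.998 (edgeR quasi-likelihood, Benjamini-Hochberg), and 5 of 12764 genes (0.0392%) passed, 0.0157% as higher and 0.0235% as lower. By library the log2 ratios were -0.68 (-1.08 to -0.30) and 0.01 (-0.28 to 0.29), so 4T1 was lower beyond counting error in 1 of 2 libraries. With only the subsets led by Ccl21a, Stmn2 and Clu and by Ccl21a, Clu and Ccl19 the fitted value was 0.38. That fit left out the subset led by Kirrel3, Cd74 and 6530403H02Rik, which also expressed Ccl19 and Ccl21a. From all fibroblasts of the myeloid and stromal library alone the value was 0.026.

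Fibroblast Tnfsf8 under LPS did not differ from naive beyond counting error in the 1 library that held LPS, and no test was possible with 1 sum per condition. The log2 ratio of LPS over naive was 0.42, with an exact binomial interval of -0.40 to 1.31 that covers counting error only and includes 0. Among 9543 genes counted at 50 UMIs or more in either sum, 13.2% had an interval above 0 and 14.7% one below. The ratio was -0.30 when a hashtag had to exceed the next one 10-fold and -0.07 with fibroblasts picked by marker genes, again with intervals that include 0. Set against LPS in place of naive, Tnfsf8 in 4T1 was at log2 1.48 (0.95 to 2.01) and in 67NR at 2.16 (1.76 to 2.58). In these ratios 18.2% and 29.0% of genes had an interval above 0. Tumour and LPS tissue were taken at different times, 18 days against 72 hours.

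Tnfrsf8 was nearly absent from fibroblasts. No UMI was counted in 1311 stromal fibroblasts, and 6 UMIs in 3 of 284 67NR cells were the only ones in the myeloid and stromal library, a 67NR level of 1.18 (0.433 to 2.57). Blood endothelial cells held Tnfrsf8 at 1.30 (9 UMIs in 7 of 728 cells), monocytes at 1.19 (14 UMIs in 12 of 567 cells), macrophages at 2.00 (8 UMIs in 6 of 219 cells) and neutrophils at 1.23 (11 UMIs in 6 of 1236 cells). The other myeloid-library cells whose clusters stayed unnamed held it at 2.18 (48 UMIs in 31 of 1712 cells). Free RNA was not told apart from low expression at such levels.

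Other TNF family genes were followed from lists of 18 ligands, 25 receptors and 22 TRAF and NF-kB signalling genes. Beside Tnfsf8, whose tumour contrasts chose the pair, 9 ligands were tested in fibroblasts. None of these passed in 4T1 over naive (edgeR; 4 at an unadjusted p under 0.05 and none by DESeq2), where 1.39% of all genes did. In 67NR over naive, where 2.72% of all genes passed, 1 did, Tnfsf15, a ligand of death receptor 3. Tnfsf15 was higher by log2 3.08 (SE 0.58, adjusted p 0.0253, edgeR), at a low mean level of 5.36 CPM in the fit. Of 16 receptors tested none passed in 4T1 (edgeR, 4 at an unadjusted p under 0.05 and none by DESeq2). In 67NR 1 passed, Tnfrsf11b (osteoprotegerin, the soluble decoy for RANK ligand), higher by log2 3.23 (SE 0.62, adjusted p 0.0284, edgeR). Its mean level in the fit was also low, at 6.59 CPM. Of 22 signalling genes 1 passed in 67NR, Nfkb1 (an NF-kB subunit), and none in 4T1 (1 at an unadjusted p under 0.05 and 1 by DESeq2). Nfkb1 in 67NR was higher by log2 0.89 (SE 0.15, adjusted p 0.0188). By DESeq2, 0 of the 9 ligands, 0 receptors and 1 signalling gene passed in 67NR over naive. Median log2 changes of the 9 ligands, the receptors and the signalling genes were -0.15, 0.12 and 0.04 in 4T1 and -0.21, 0.03 and 0.07 in 67NR, against -0.01 and -0.02 over all genes. No list member passed between the tumours in edgeR or DESeq2, where 0.0392% of all genes passed in edgeR and 1 ligand, 1 receptor and 0 signalling genes had an unadjusted p under 0.05.

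Tnfsf8 was higher in CD4 T cells without a Foxp3 UMI than in CD8 T cells in all 5 pools, and among the CD4 and CD8 gates they held the highest level in each pool but the mediastinal one. Gates were set by UMIs of Cd3, Cd4, Cd8 and Foxp3 (the transcription factor of regulatory T cells), none of which is a member of the pair. In the Foxp3-negative CD4 gate Tnfsf8 reached 908 CPM in 4T1, 1034 in 67NR and 684 in naive cells of the T cell library, 446 in the axillary and 277 in the mediastinal atlas. The CD8 gate held 114, 117, 96.4, 86.3 and 111 in the same order, so its highest pool lay below the lowest CD4 pool. The fitted log2 fold change of Foxp3-negative CD4 over CD8 was 2.56 (SE 0.22, adjusted p 7.61e-05, edgeR), higher in 5 of 5 pools, in a comparison where 13.3% of 11046 genes passed as higher and 11.2% as lower. The 3 conditions of the T cell library are pools of 1 library, so the 5 pools are 3 libraries. With cells thinned to 1000 UMIs before gating the value was 1.87, and without the mediastinal pool it was 2.82.

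Gamma-delta T cells, gated by Trdc without Cd4 or Cd8, held Tnfsf8 at 44.9 in the axillary atlas (312 of 3239 cells) and at 98.4 in the mediastinal one, both below the CD4 gate of the same atlas. The axillary B cell gate held a Tnfsf8 UMI in 13 of 1914 cells (0.679%) at a median of 5581 UMIs, against 332 of 847 Foxp3-negative CD4 cells (39.2%) at 6718. Thinned to 5000 UMIs those shares were 0.664% and 37.5%, with 709 and 154 shallower cells left out. The mediastinal B cell gate held 45.5, in the library that stood apart. Whether the axillary share or the mediastinal level is background was not tested.

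Foxp3-positive CD4 cells held Tnfsf8 at 156 in 4T1, 179 in 67NR, 296 in T cell library naive, 335 in axillary and 443 in mediastinal pools, a range that overlaps that of the Foxp3-negative gate. The fitted log2 fold change of Foxp3-positive over Foxp3-negative was -1.32 (SE 0.40) and did not pass (adjusted p 0.0541, edgeR), with lower values in 4 of 5 pools. The mediastinal pool went the other way, at log2 0.68 from 44 Foxp3-positive cells. Without it the fold change was -1.74 and passed (adjusted p 0.00234). With all 5 pools 6.69% of 10702 genes passed as lower and 7.58% as higher. Without the mediastinal pool 12.5% of 10835 genes passed as lower and 13.0% as higher.

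Among the CD4 and CD8 gates Tnfrsf8 was highest in Foxp3-positive CD4 cells in each pool. That gate held 13.6 CPM in 4T1 (42 of 283 cells with a UMI), 9.26 in 67NR (22 of 308), 9.67 in T cell library naive (16 of 247), 5.68 in axillary (8 of 269) and 11.5 in mediastinal pools (4 of 44). The Foxp3-negative gate held 3.89, 1.80, 1.89, 2.37 and 10.6 in the same order, so the gates overlap only through the mediastinal pool. Tnfrsf8 was higher in the Foxp3-positive gate by a fitted log2 of 1.69 (SE 0.29, adjusted p 0.00391, edgeR), in 5 of 5 pools, with 7.58% of genes passing as higher. It was 1.88 without the mediastinal pool, whose own log2 ratio was 0.13, and in that fit 13.0% of genes passed as higher. The adjusted p (edgeR) ran from 0.000445 to 0.0289 with each pool left out. Without a block for the pool the value of 1.58 did not pass (adjusted p 0.0517, edgeR). Cells whose Foxp3 transcripts were missed count as Foxp3-negative. In 4T1, 44 and 14 of the 496 Foxp3-negative cells lay in clusters led by Lrrc32 and by Il1rl1, with Foxp3 among their leading genes. Thinned to 5000 UMIs, 6.07%, 3.65% and 1.68% of Foxp3-positive 4T1, 67NR and naive cells of the T cell library held Tnfrsf8. Of the Foxp3-negative cells 1.44%, 0.644% and 0.461% did.

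Of these 3 gates the CD8 one held the least Tnfrsf8 in each pool, 0.972 in 4T1, 0.503 in 67NR, 0.396 in T cell library naive, 0.669 in axillary and 3.53 in mediastinal pools. Foxp3-negative CD4 over CD8 gave log2 1.84 (SE 0.27, adjusted p 0.00107, edgeR), higher in 5 of 5 pools. Without a block the value of 1.84 did not pass (adjusted p 0.106). Without the mediastinal pool it was 1.92 (adjusted p 0.00116, edgeR). In that fit 16.0% of 11100 genes passed as higher, against 13.3% of 11046 with all 5 pools. Other axillary lymphocytes stood as low as CD8 cells or lower, with 0.663 (9 UMIs) in the B cell gate, 0.404 in gamma-delta and 0.325 in NK and ILC-like cells. The mediastinal B cell gate held 1.15. The germinal-centre-like B cells of that atlas held 14, from 6 UMIs in 4 of 96 cells, too few to rank them against the Foxp3-positive pools.

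**Figure D3:**
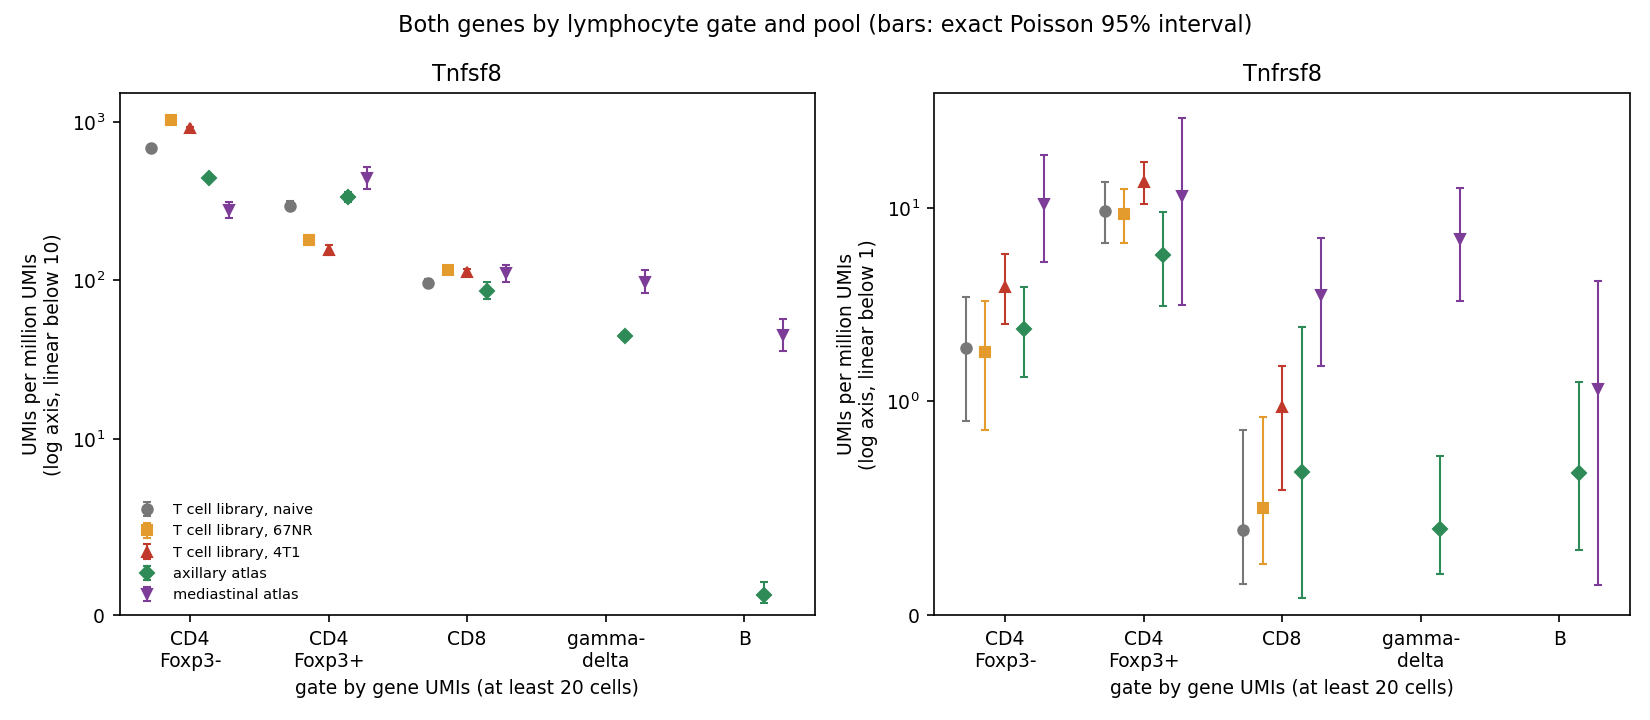
Level of Tnfsf8 (left) and Tnfrsf8 (right), in CPM, by lymphocyte gate and pool; the axis is logarithmic above 10 (left) and above 1 (right) and linear below. Points are 1 pool and bars are exact Poisson 95% intervals; Tnfsf8 is 277 to 1034 in the Foxp3-negative CD4 gate against 86.3 to 117 in the CD8 gate, and Tnfrsf8 is 5.68 to 13.6 in the Foxp3-positive CD4 gate.

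In the T cell library Tnfsf8 was above naive in Foxp3-negative and below naive in Foxp3-positive CD4 cells of both tumours, with 1 pool per condition and so no test. In the Foxp3-negative gate the log2 ratio to naive was 0.41 (0.35 to 0.47) in 4T1 and 0.59 (0.53 to 0.66) in 67NR. In that gate 14.3% and 11.5% of genes had an interval above 0, and 9.93% and 13.1% one below. In the Foxp3-positive gate it was -0.93 (-1.06 to -0.79) and -0.73 (-0.86 to -0.59), where 13.8% and 10.9% of genes had an interval below 0. The CD8 gate gave 0.24 (0.14 to 0.33) and 0.28 (0.18 to 0.38), with 15.6% and 18.6% of genes above 0. The tumour ratios share their naive pool. Thinned to 5000 UMIs, the share of Foxp3-negative CD4 cells with a Tnfsf8 UMI was 50.5% in naive, 61.7% in 4T1 and 63.7% in 67NR (56.3%, 70.6% and 71.0% before thinning), and that of Foxp3-positive cells 37.4%, 23.2% and 19.9% (43.3%, 28.3% and 26.0% before). Between 3 and 33 cells of these gates were too shallow to thin.

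Cluster make-up moved with these ratios, and its part in them was not tested. In the Foxp3-negative gate the cluster led by Fbn2, Tnfsf8 and Stfa3 held 71 of 467 naive, 123 of 496 4T1 and 131 of 487 67NR cells, at Tnfsf8 levels of 2203, 2233 and 2292. Tnfsf8 is itself a leading gene of that cluster. In the Foxp3-positive gate the cluster led by Lrrc32, Mctp1 and Ntn4 held 131 naive, 107 4T1 and 99 67NR cells, at 521, 441 and 336. The cluster led by Il1rl1 (the IL-33 receptor), Neb and Hopx held 61, 110 and 154 cells, at 94.6, 15.8 and 19.3. The clusters were built from the same counts, so ratios at fixed cluster shares are a description. With cluster shares held at naive, the log2 ratios were 0.15 in 4T1 and 0.14 in 67NR for the Foxp3-negative gate, -0.34 and -0.48 for the Foxp3-positive gate, and 0.47 and 0.65 for CD8 cells.

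Intervals of the Tnfrsf8 ratio to naive included 0 in all 3 gates. The log2 ratio in 4T1 was 1.04 (-0.07 to 2.27) in the Foxp3-negative, 0.49 (-0.14 to 1.15) in the Foxp3-positive and 1.29 (-0.09 to 2.91) in the CD8 gate. In 67NR it was -0.07 (-1.49 to 1.35), -0.06 (-0.77 to 0.66) and 0.34 (-1.26 to 2.09). These gates hold 6 to 65 Tnfrsf8 UMIs per condition. In the Foxp3-negative and CD8 gates a log2 difference of the size seen for Tnfsf8 was not detectable at this depth. In the Foxp3-positive gate the Tnfsf8 ratio of -0.73 in 67NR lay inside the Tnfrsf8 interval, and that of -0.93 in 4T1 lay below it. By cluster, Tnfrsf8 was highest in the Il1rl1, Neb and Hopx cluster, at 11 in naive, 18.5 in 4T1 and 15.3 in 67NR, and in the cycling cluster led by Hist1h1b, Ube2c and Mki67, at 14.8, 13.9 and 11.3.

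**Figure D4:**
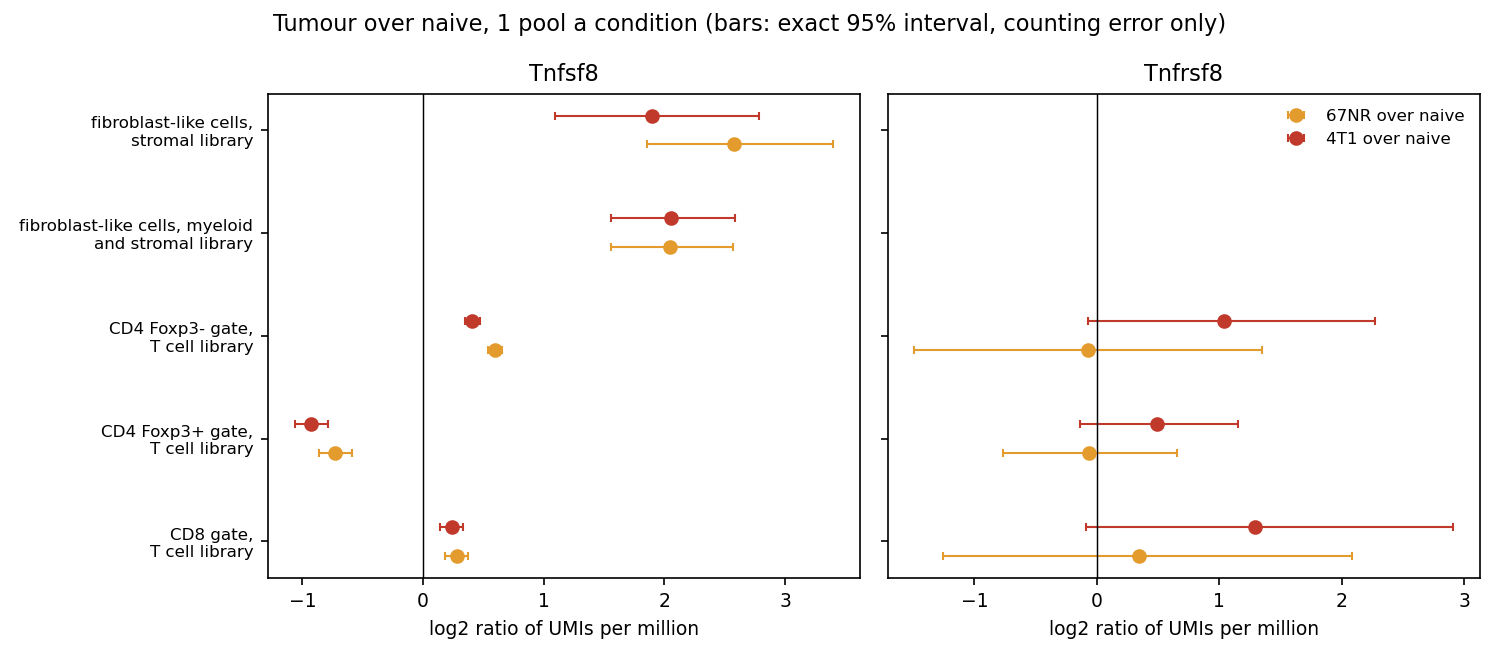
Log2 ratio of CPM, 4T1 (red) and 67NR (orange) over naive, for Tnfsf8 (left) and Tnfrsf8 (right) in fibroblast-like cells of 2 libraries and in 3 gates of the T cell library; Tnfrsf8 has no ratio in fibroblasts. Points are 1 pool per condition and bars are exact 95% intervals for counting error; Tnfsf8 lies above 0 in fibroblasts, Foxp3-negative CD4 and CD8 cells and below 0 in Foxp3-positive CD4 cells (-0.93 and -0.73), and all Tnfrsf8 intervals include 0.

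Surface antibodies gave gates that use no RNA, after cells above the thresholds of more than one lineage were left out. CD25 is the interleukin-2 receptor alpha chain, carried by regulatory and activated T cells. In the axillary atlas Tnfsf8 was 413 (397 to 430) in CD4+ CD25+ cells and 362 (345 to 379) in CD4+ CD25- cells. Tnfrsf8 was 7 (5.06 to 9.42; 43 UMIs in 28 of 772 cells) in the first and 1.03 (0.336 to 2.41; 5 UMIs in 3 of 702 cells) in the second, so the intervals of the CD25+ and CD25- gates did not overlap for either gene. For Tnfsf8 the direction was opposite to that of the RNA gates of this atlas, where Foxp3-positive CD4 cells held 335 and Foxp3-negative ones 446. The Foxp3-positive gate held 269 cells, fewer than the 772 of the CD4+ CD25+ gate. CD8+ cells held Tnfsf8 at 97.2 (82.1 to 114) and TCRgd+ cells at 42.8 (40.1 to 45.5). No intervals of neighbouring antibody gates, ordered by Tnfsf8 level, overlapped. Tnfrsf8 stood at 0.666 (1 UMI) in CD8+ and 0.389 (9 UMIs) in TCRgd+ cells. In the mediastinal atlas CD4+ CD25+ cells (55) held Tnfsf8 at 507 and Tnfrsf8 at 9.05, and CD4+ CD25- cells (117) held them at 480 and 9.27, with overlapping intervals for both genes.

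**Figure D5:**
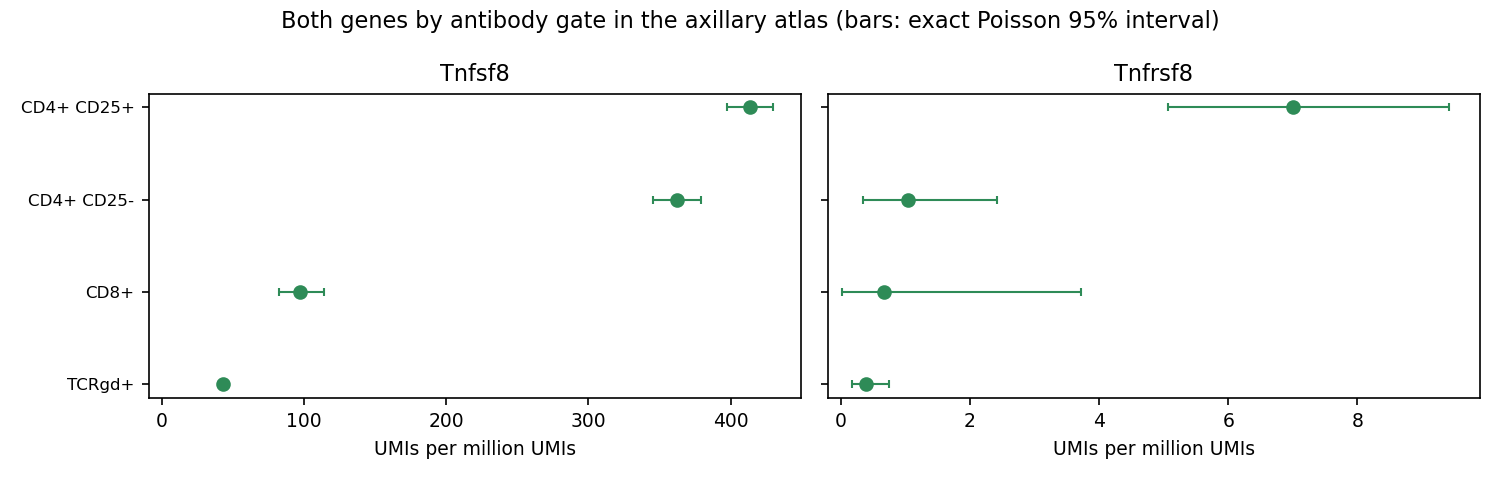
Level of Tnfsf8 (left) and Tnfrsf8 (right), in CPM, by surface antibody gate in the axillary atlas, 1 library. Points are sums over the cells of a gate and bars are exact Poisson 95% intervals; Tnfsf8 is 413 in CD4+ CD25+ and 362 in CD4+ CD25- cells, and Tnfrsf8 is 7 in CD4+ CD25+ against 1.03 in CD4+ CD25- cells.

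Cells named NK and ILC-like and follicular dendritic-like also held Tnfsf8 in the myeloid and stromal library. The cluster named NK and ILC-like, led by Gzma, Nkg7 and Il2rb, held 50.5 (91 UMIs in 20 of 213 cells). Of these, 71 UMIs lay in naive cells, at 46.9. The class of that name held 4.63 in the axillary atlas and 21.7 in naive cells of the T cell library. Follicular dendritic-like cells held 53.2, all of it in 4 of 16 67NR cells (19 UMIs). Dendritic cells held 3.21 (34 UMIs in 6 of 487 cells).

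Ligand and receptor were also counted cell by cell. In the T cell library, with 4T1, 67NR and naive cells counted together, 80 of 838 Foxp3-positive CD4 cells held a Tnfrsf8 UMI. Of these, 14 (17.5%) also held Tnfsf8, against 31.9% of all cells in the gate. That gate share was 28.3% in 4T1, 26.0% in 67NR and 43.3% in naive cells, and the part of condition was not tested. Of 32 Foxp3-negative cells with Tnfrsf8, 23 (71.9%) held Tnfsf8, against 66.1% of the gate, and of 28 CD8 cells with Tnfrsf8, 12 (42.9%) did, against 42.3%. Cells with Tnfrsf8 were deeper, at a median of 17099 UMIs against 10510 in the Foxp3-positive gate. In the axillary atlas 2 of 8 and 6 of 9 receptor-positive cells of the Foxp3-positive and Foxp3-negative gates held the ligand.

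The lists of family genes were also counted in the T cell comparisons. From Foxp3-negative to Foxp3-positive CD4 cells 5 of 12 ligands fell and none rose (edgeR), among them Tnfsf11 (RANK ligand), at a log2 of -2.85, Tnfsf14 (LIGHT, -2.62), Fasl (-2.59) and Cd40lg (-2.55). Of 16 receptors 7 rose and 3 fell, with Tnfrsf9 (4-1BB) at 2.01 beside Tnfrsf8, and Tnfrsf19 at -1.30 and Tnfrsf1a at -0.97. Of 22 signalling genes 5 rose and 1 fell, including Traf3 (0.97), Traf1 (0.67), Rel (0.67) and Map3k14, the NF-kB inducing kinase (-0.85). The list medians were -1.02, 0.44 and 0.10, against -0.01 over all genes, and 14.3% of all genes passed. Without the mediastinal pool 7 of 12 ligands fell and 2 rose, 8 receptors rose and 3 fell, and 8 signalling genes rose and 2 fell, with medians of -1.43, 0.51 and 0.08 against -0.02, where 25.5% of all genes passed. The ligands that rose there were Ltb (lymphotoxin beta), at 0.53, and Tnfsf9 (4-1BB ligand), at 0.87.

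Foxp3-negative CD4 over CD8 cells had 10 of 12 ligands higher and none lower, with Cd40lg (3.34), Tnfsf8 (2.56), Tnfsf11 (2.26) and Tnfsf13b (BAFF, 1.87) first. Of 16 receptors 9 were higher and 4 lower, with Tnfrsf4 (OX40) at 2.18, Tnfrsf8 at 1.84, Tnfrsf25 at 1.54 and Tnfrsf13c at -1.01, and of 22 signalling genes 8 were higher, including Tank (1.08), Nfkb1 (0.67), Rel (0.56) and Nfkbia (0.44). Medians were 1.07, 0.36 and 0.21 against -0.01, and 24.5% of all genes passed. Without the mediastinal pool 10 of 12 ligands were higher and none lower, 10 of 15 receptors were higher and 3 lower, and 10 signalling genes were higher, with medians of 1.15, 0.44 and 0.22 against -0.01, where 29.4% of all genes passed. Tnfrsf13c was not among the genes tested there.

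Genes with the most similar pattern were ranked by Pearson's r of log2 levels, among 9102 genes, as a description without a test. The ranking used 45 sums of a cell class or a lymphocyte gate with at least 50 cells. Nearest to Tnfsf8 were Lrig1 (0.93), Gm20275 (0.93), Dusp10 (0.92), Ccn4 (0.91) and Ubash3a (0.91). Nearest to Tnfrsf8 were Il1rl1 (0.82), Gm13684 (0.77), Foxp3 (0.72), Sema4b (0.72) and Pkd2l2 (0.71). Over the 41 sums outside the mediastinal atlas the nearest to Tnfsf8 were Lrig1 (0.93), Gm20275 (0.92) and Dusp10 (0.91), and those to Tnfrsf8 were Il1rl1 (0.84), Foxp3 (0.82) and Gm13684 (0.77). The sums share libraries and depth, and a few T cell gates hold the high values of both genes. Foxp3 UMIs set the Foxp3-positive and Foxp3-negative gates, so the r of Foxp3 follows in part from the gating.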

How the data were processed

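The files hold the authors' UMI counts per gene and per antibody or hashtag, without normalization. Per the submitters' processing notes, Cell Ranger 7.0 and the mm10 build were used, and no source read here gives its settings. Cells needed at least 500 UMIs, 250 genes and at most 10% mitochondrial UMIs. A hashtag was called at 10 counts and 3 times the next one, and 183, 1110 and 541 droplets of the stromal, myeloid and stromal, and T cell libraries with a second hashtag too close were removed; no hashtag names poly(I:C), nor LPS in the T cell library, and neither was analysed here. Scrublet marked 868 axillary cells (7.55%), which were removed, and 0 mediastinal cells, where it did not work. Libraries were clustered singly (scanpy 1.11.5, 2000 variable genes, 30 components, Leiden resolution 1), and clusters were named from marker lists by a scoring rule chosen after seeing the data. 

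Sums of counts over each pool and group were tested with edgeR 4.0.16 (quasi-likelihood, TMM, filterByExpr, R 4.3.3), with library or pool as a block; DESeq2 1.42.0 was the other tool, and SE is the fold change over the root of F. Conditions of one library, and gates of one pool, come from the same preparation; such sums deviated together, at correlations of 0.711 in fibroblasts and 0.324 to 0.594 in the gates, so the block was kept. Groups with 1 sum were compared by exact binomial intervals of 95%, and antibody thresholds came from a mixture of 2 components (scikit-learn 1.9.0). Gates that need some items are not reported here. The scripts were tested on simulated data. Replicates are hashtagged pools or libraries, with no label on separate mice, so p-values measure the spread between these. The pair, the gene lists and the comparisons were chosen with earlier results of these data known. Named genes are the pair, up to 4 members per list and comparison with the largest change among those that passed, and the 5 most alike.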

Additional observations from a re-analysis of the deposited data

Results flagged for a closer look

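The mediastinal pool lay apart from the other 4 pools for Tnfrsf8 in 2 T cell gates by Dixon's test, which flags about 1 in 20 groups by chance. In the Foxp3-negative CD4 gate it held 10.6 CPM (UMIs per 1000000 UMIs), against 1.80 to 3.89, and in the CD8 gate 3.53, against 0.396 to 0.972. Its median depth was 2272 UMIs per cell, and most of its cells exceeded both the CD4 and the CD8 antibody threshold, and the part of those features in these levels was not tested.

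The Tnfsf8 ratio of tumour over naive had opposite signs in the CD4 gates of the T cell library. The log2 ratio in the Foxp3-positive gate minus that in the Foxp3-negative gate was -1.33 in 4T1 and -1.32 in 67NR. With 1 pool per condition, this difference was not tested, and both values share the naive pool.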

How the results depend on the processing

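The tumour over naive values of Tnfsf8 in fibroblasts chose the pair, so they are listed as a description and support nothing. In 4T1 and 67NR they were log2 2.02 and 2.25 without the replicate block. They were no longer past the threshold there, nor with cells thinned to 1000 UMIs (2.48 and 2.79) or a marker gate (1.99 and 2.22). The same held with only the Ccl19 and Ccl21a clusters (1.71 and 1.33) and, in 4T1, with a hashtag ratio of 10 (2.32). Those clusters are the ones led by Ccl21a, Stmn2 and Clu and by Ccl21a, Clu and Ccl19. The subset led by Kirrel3, Cd74 and 6530403H02Rik is not among them. Leaving out each library gave 1.88 to 2.13 in 4T1, 2.11 to 2.55 in 67NR and -0.66 to 0.026 in 4T1 over 67NR, which reversed without the stromal library (0.026) and with only the Ccl19 and Ccl21a clusters (0.38). Genes passing (edgeR) in 4T1 over naive (178), 67NR over naive (347) and 4T1 over 67NR (5) became 932, 1188 and 136 with no gene filter and 0, 0 and 0 without the block. They became 34, 86 and 0 with thinning, 0, 55 and 0 with the marker gate, 6, 24 and 0 with a hashtag ratio of 10, and 7, 25 and 11 with only the Ccl19 and Ccl21a clusters. Counts were 81 in 4T1 with at most 5% mitochondrial UMIs, 85 in 4T1 and 126 in 67NR without the stromal Smpd3 cluster, 207 in 67NR without the Smpd3 clusters, and, in 4T1 over 67NR, 1 with DESeq2 and 8 with at least 1000 UMIs a cell. The cluster subsets, the removal of the highest cells, and the gene lists and most alike genes without the mediastinal pool were chosen after seeing the data. The causes were not tested.

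In the gates, the pool block decided Tnfrsf8 in Foxp3-positive over Foxp3-negative cells (1.58 without the replicate block) and Tnfrsf8 in CD4 over CD8 cells (1.84), and it changed no other call of the pair there. Tnfsf8 in Foxp3-positive over Foxp3-negative cells passed with no gene filter (-1.36). With each pool left out, values ran from 1.54 to 1.88 and 1.77 to 1.92, and Tnfsf8 from -1.74 to -0.96 in Foxp3-positive over Foxp3-negative and 2.40 to 2.82 in CD4 over CD8 cells. Thinned to 1000 UMIs, Tnfsf8 in tumour over naive was 0.29 (-0.08 to 0.67) in 4T1 and 0.36 (-0.0036 to 0.72) in 67NR Foxp3-negative cells. In Foxp3-positive cells it was -0.74 (-6.62 to 3.53) and -1.22 (-7.10 to 3.04), from 1 UMI in each tumour against 2 in naive, so all 4 intervals include 0 and the last 2 values show no direction. In Foxp3-positive cells it was -0.91 in 67NR with a hashtag ratio of 10. The thinned fit of the Foxp3 gates was not run, since too few cells were left, and with 1 fibroblast library left no test was possible, so those values have none.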
